A study of Mus musculus with 3 samples.

Results

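Lhx6, Lhx8, Nkx2-1, Sox6, Satb1, Dlx1, Dlx2 and Dlx5 are transcription factors of the medial ganglionic eminence (MGE), the part of the embryonic forebrain from which many cortical interneurons arise. The 8 genes were chosen by name as factors of MGE-derived interneurons, and all 8 were found among the 25562 genes counted. Of these, 7 matched by symbol, and Nkx2-1 was matched by its gene ID because the deposited tables carry its older symbol, Titf1. The data came from neurons of the MGE of C57Bl/6 mouse embryos at day 14 of gestation (E14), kept in culture for 10 days. The sample titles carry the letters WT, which the protocols use for the whole-transcriptome method, and beyond the strain no genotype is given in the labels. From day 9 the neurons of all 3 libraries were silenced overnight with TTX, which blocks sodium channels, and AP-5, which blocks NMDA-type glutamate receptors. KCl outside the cells was raised to 55 mM to depolarize them, for 1 or 6 h, and the 0 h library is the silenced reference. Total RNA depleted of ribosomal RNA was sequenced with its strand kept on an ABi SOLiD instrument, 1 library per time. With 1 library per time there is no replicate check, no p-value is given, and every interval covers counting error alone. The intervals treat each read as independent, though duplicate reads stayed in, so they can be too narrow. Mapped reads per distinct position were 2.45, 2.60 and 2.33 at 0, 1 and 6 h.

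Nkx2-1 specifies the MGE in its progenitors and turns on the LIM-homeodomain genes Lhx6 and Lhx8. Lhx6 is kept in MGE-derived cortical interneurons, while Lhx8 is best known in cholinergic neurons of the ventral forebrain. Sox6, an SRY-related HMG-box factor, and Satb1, a chromatin-organizing protein, act after Lhx6 in young interneurons, where they are needed for somatostatin and parvalbumin cells to mature. The Dlx homeobox genes act throughout the ganglionic eminences and promote the GABAergic fate, and they lie in tail-to-tail pairs, Dlx1 beside Dlx2 and Dlx5 beside Dlx6.

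Uniquely mapped reads per library ranged from 8549377 to 8996897, and sense exonic reads from 2189394 to 2480579. The cultures held RNA of more than one cell type. All 12 markers of MGE-derived interneurons reached 20 reads in a library, and their summed level ranged from 4737 to 6557 sense exonic reads per 1000000 scaled exonic reads (RPM). The highest of the 12 at 0 h were Gad1 and Gad2, at 2787 and 2140 reads, GABA-synthesis genes not particular to the MGE. Sst had 1146, 1414 and 1841 reads, and Pvalb, not among the 12, had 1, 0 and 0. All 10 markers of astrocytes and radial glia also reached 20 reads in a library. Their sums were 2348, 2483 and 2993 RPM at 0, 1 and 6 h, highest in the 6 h library. There Vim had 1491 reads after 672 and 868. Markers of CGE-derived interneurons summed to 3734 to 4109 RPM, most of it Reln, a gene of several interneuron types. The oligodendrocyte lineage summed to 141 to 176 RPM and dividing cells to 134 to 152 RPM. Of the 12 markers of cholinergic and striatal projection neurons none did, with a sum of 19.5 to 24.9 RPM, and Chat, the enzyme that makes acetylcholine, had 0 reads in the 3 libraries. Excitatory cortical markers summed to 244 to 278 RPM, with 2 of 10 at 20 reads or more, Cux2 (Cutl2 in the tables) at 604, 606 and 559 reads making up most of the sum, and Neurod2 and Emx1 at 0. Microglial markers summed to at most 0.446 RPM. In such a bulk sample, fewer cells of a type and less RNA per cell cannot be told apart, and the part that other cell types have in the values below was not tested.

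Between genes, levels were compared per length, in RPM per kb of exon. Lhx6 stood first in each library, at 105, 71.8 and 58.5 on this scale after 0, 1 and 6 h. At 0 h that placed it above 95.0% of the genes with at least 20 exonic reads, and at 6 h above 85.9%. At 0 h Sox6 followed at 40.5 and Dlx1 at 34.5, and the Poisson intervals of those 2 overlapped. Dlx5 at 22.2 and Satb1 at 21.5 did not differ beyond their intervals, nor did Dlx2 at 13.97 and Nkx2-1 at 9.69, nor Nkx2-1 and Lhx8 at 6.32. Lhx8 stood above 15.9% of those genes and Nkx2-1 above 28.9%. At 1 h Dlx1 at 35.9, Dlx5 at 32.8 and Sox6 at 31.7 overlapped from neighbour to neighbour, as did Dlx2 at 15.9, Satb1 at 15.7 and Lhx8 at 15.1, while Nkx2-1 at 7.51 lay below Lhx8 with no overlap. At 6 h Dlx1 at 31.1, Sox6 at 28.7 and Dlx5 at 23.7 overlapped from neighbour to neighbour, and so did Satb1 at 15.5, Lhx8 at 10.7, Dlx2 at 9.78 and Nkx2-1 at 8.41. By reads rather than per length, Lhx6 and Sox6 together made up most of the exonic reads of the 8 genes in each library, at 38.2% and 34.8% after 0 h.

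**Figure D1:**
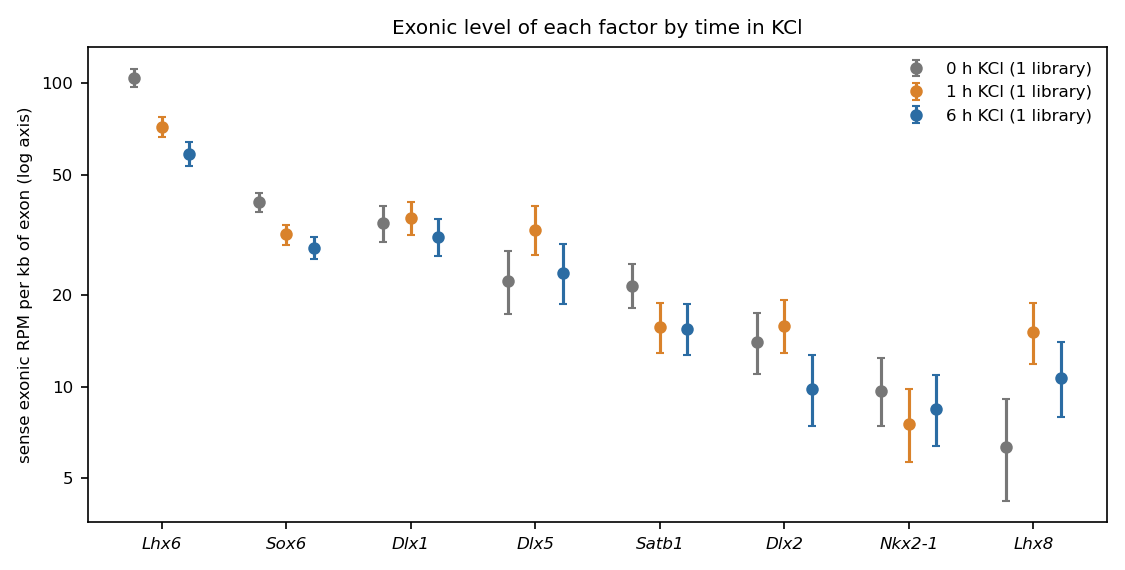
Sense exonic reads in RPM per kb of exon (vertical log axis) for the 8 factors at 0, 1 and 6 h in KCl, 1 library per time. Bars are exact Poisson 95% intervals of the count. Lhx6 has the highest level at each time, from 105 at 0 h to 58.5 at 6 h, and Lhx8 stands at 6.32 at 0 h, with an interval that overlaps that of Nkx2-1, and at 15.1 at 1 h.

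Times were compared by the ratio of read counts scaled with TMM factors, which assume that most genes do not differ. A call of higher needed a ratio of 2 or more and a call of lower 0.5 or less, each with an exact Clopper-Pearson 95% counting interval that excluded 1 and at least 20 reads in 1 library of the pair. After 1 h, 1 of the 8 factors was called higher in exonic reads, Lhx8, where 1.58% of the 10093 genes compared were. None was called lower, where 1.43% of genes were. After 6 h none of the 8 was called against 0 h, where 4.92% of 10095 genes were called higher and 5.42% lower, or 10.3% in all. None was called at 6 h against 1 h, where 4.17% of 10137 genes were called higher and 4.63% lower, or 8.80% in all. At 1 h 4 of the 8 ratios lay above 1 and 4 below, with 2 counting intervals wholly above 1 and 3 wholly below, where 12.1% and 12.9% of all genes compared had such intervals. With scaling by mapped reads the 1 h counts were 3 above and 1 below, beside 33.7% and 4.38% of genes. At 6 h 4 intervals lay wholly below 1, 1 above it and 3 spanned it, beside 21.0% of genes below and 23.2% above. The count of 4 below 1 at 6 h was 2 with scaling by mapped reads, 3 with DESeq2 size factors and 4 with total exonic reads. The median log2 ratio of the 8 was -0.15 at 1 h and -0.34 at 6 h, beside 0.01 and 0.00 over all genes compared. The comparisons of 1 h and of 6 h with 0 h share the 0 h library.

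**Figure D2:**
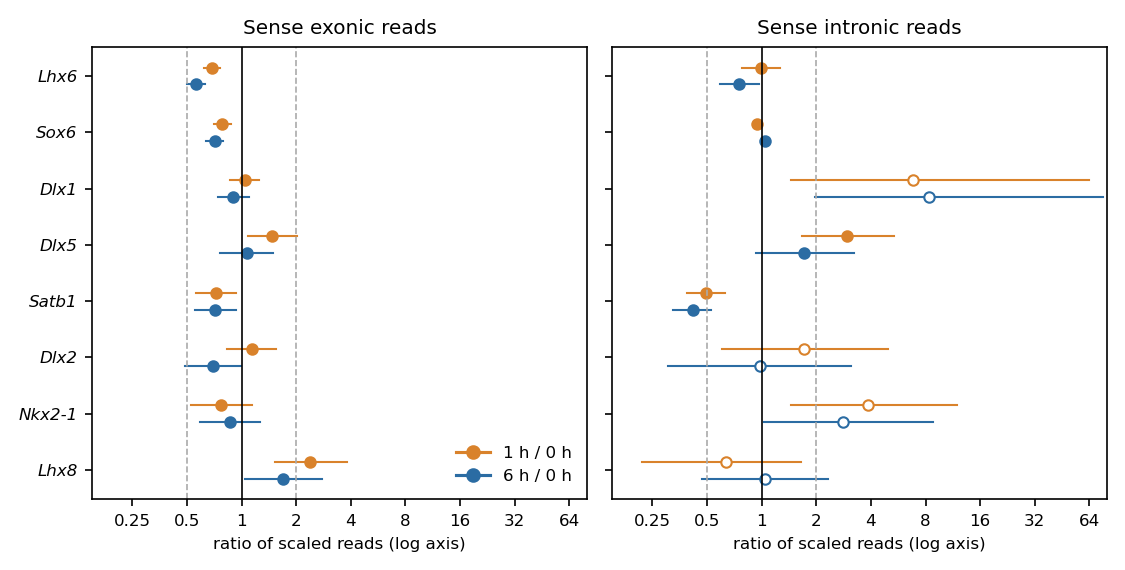
Ratios of scaled sense exonic reads (left) and intronic reads (right) at 1 h and at 6 h to those at 0 h, on log axes, with 95% counting intervals (1 library per time). Dashed lines mark ratios of 0.5 and 2, and open symbols mark factors with under 20 intronic reads in both libraries of the pair, which were not compared. Lhx8 exonic reads at 1 h (2.39) and Dlx5 intronic reads at 1 h (2.94) lie above 2, and Satb1 intronic reads lie below 0.5 at both times.

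Nkx2-1 (gene ID 21869; chromosome 12, 57632945 to 57637895, minus strand, mm9) had 61, 53 and 56 exonic reads at 0, 1 and 6 h. The 3 libraries were close to each other: the ratio to 0 h was 0.775 (0.526 to 1.14) at 1 h and 0.868 (0.593 to 1.27) at 6 h, and both intervals spanned 1. Its last exon, the third, held 45, 36 and 48 of the reads. Its 2 introns together had 6, 17 and 15 reads, too few to be compared at a minimum of 20. At a minimum of 10 both ratios to 0 h, 3.86 at 1 h and 2.80 at 6 h, would be called higher, with intervals of 1.45 to 11.9 and 1.03 to 8.82. The introns pass that minimum only through the later libraries, where they are high, and the share of all genes called at it is not given. With the TMM factors of exonic counts the 1 h interval spanned 1 (0.951 to 7.83). The 6 h interval excluded 1 in 2 of 5 scalings. The first intron held 4, 14 and 11 of the intronic reads.

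Lhx6 (gene ID 16874; chromosome 2, 35937473 to 35960928, minus strand, mm9) had 838, 645 and 496 exonic reads, highest in the silenced library and lowest after 6 h. The ratio to 0 h was 0.686 (0.618 to 0.762) at 1 h and 0.560 (0.4999 to 0.626) at 6 h, and the ratio of 6 h to 1 h was 0.815 (0.724 to 0.918). All 3 intervals excluded 1, and none of the ratios reached the 2-fold line. The values at 1 h and 6 h stood at the 8.36th and 8.56th percentile of the genes compared. Most exonic reads lay in the last exon, and not every exon was lower at 6 h. Exon 10, the last, held 629, 497 and 367 reads, the coding sequence 212, 166 and 139, and spliced reads, which cross from exon to exon, numbered 56, 32 and 31. Intronic reads of Lhx6 were 168, 122 and 113, with a ratio of 0.988 (0.776 to 1.26) at 1 h and 0.754 (0.589 to 0.963) at 6 h. These ratios use factors from intronic counts. With the TMM factors of exonic counts the 1 h ratio was 0.648 (0.509 to 0.823), and its interval excluded 1 in 2 of 5 scalings. The number of exonic reads per intronic read was 4.99, 5.29 and 4.39, with overlapping intervals.

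Lhx8 (gene ID 16875; chromosome 3, 153969257 to 153993524, minus strand, mm9) had 28, 75 and 50 exonic reads, lowest at 0 h and highest at 1 h. It rose 2.39-fold at 1 h (1.53 to 3.83), at the 99.1st percentile of the genes compared. At 6 h the ratio to 0 h was 1.69 (1.04 to 2.79), not called, and the ratio of 6 h to 1 h, 0.707 (0.484 to 1.02), had an interval that spanned 1. The reads of the 1 h library were spread over the gene: the coding sequence had 16, 44 and 28 reads, the last of 9 exons 12, 32 and 21, and spliced reads numbered 2, 10 and 3. Its intronic reads were 15, 7 and 14, under the minimum of 20. The number of exonic reads per intronic read was 1.87, 10.7 and 3.57, and the change at 1 h was 5.74-fold with an interval of 1.93 to 18.2, beside a change of 1.33 over all genes. Among 6620 genes with at least 50 exonic reads in each library, the 3 whose pair of log2 ratios lay nearest to that of Lhx8 were Hsd17b7, at a distance of 0.18, Magel2 at 0.21 and Sc4mol at 0.30. Hsd17b7 and Sc4mol encode enzymes of cholesterol synthesis, and no link of Lhx8 to them was tested. Lhx8 itself, with 28 reads at 0 h, was under that minimum of 50. Its intervals are wide beside these distances, so which genes lie nearest is not settled.

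The sequences just before the start sites of Lhx8, the 1 factor called in exonic reads, and of Lhx6, the factor with the highest exonic level per kb, are shown with the motif search over them. The windows are from RefSeq on GRCm38.p6, a build other than that of the read counts. They run 5′ to 3′ on the gene's strand, end at the base before the start site, and carry in capitals any match to the motifs listed next.
Lhx8 chr3:154330561-154330810, minus strand: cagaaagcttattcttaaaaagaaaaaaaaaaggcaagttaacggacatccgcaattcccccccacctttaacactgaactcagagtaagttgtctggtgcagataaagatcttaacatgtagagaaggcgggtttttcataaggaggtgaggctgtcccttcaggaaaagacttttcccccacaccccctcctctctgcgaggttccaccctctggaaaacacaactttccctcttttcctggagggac
Lhx6 chr2:36105409-36105658, minus strand: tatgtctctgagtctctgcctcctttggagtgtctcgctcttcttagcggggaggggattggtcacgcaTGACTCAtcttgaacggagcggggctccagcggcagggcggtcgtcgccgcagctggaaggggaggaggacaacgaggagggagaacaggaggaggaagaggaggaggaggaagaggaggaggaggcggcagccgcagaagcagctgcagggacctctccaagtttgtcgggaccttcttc
The letter strings of 6 motifs were searched on both strands of windows from 250 bases before to 50 after each start: the cAMP response element TGACGTCA, its partial site TGACG (which the full element contains), the AP-1 motif TGANTCA, the homeodomain core TAATTA, the SOX motif ACAAAG and the NKX2 motif CACTTNA. They were present in 1.79%, 20.8%, 7.81%, 5.29%, 18.7% and 11.5% of 32851 windows of that length, in that order. The Lhx8 window held none of the 6. The Lhx6 window above, 1 of 3 for that gene, held 1 match to the AP-1 motif, starting 181 bases before the start site. The other Lhx6 windows held no AP-1 match, and 1 of them held a SOX and an NKX2 match. None of the 18 windows found for 7 of the factors held the full cAMP response element, and Dlx5 was not matched to a window. A match here describes letters and not binding.

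Sox6 (gene ID 20679; chromosome 7, 122614858 to 123174561, minus strand, mm9) is the longest gene of the group, with 551.289 kb of introns. Its exonic reads numbered 763, 671 and 573, highest at 0 h and lowest at 6 h. The ratio to 0 h was 0.784 (0.706 to 0.871) at 1 h and 0.710 (0.636 to 0.792) at 6 h. Neither was called, and with scaling by mapped reads the 1 h value was 0.925 with an interval that spanned 1 (0.833 to 1.03). Intronic reads outnumbered exonic reads several times over, at 3061, 2119 and 2844. Their ratio to 0 h was 0.942 (0.891 to 0.996) at 1 h and 1.04 (0.990 to 1.10) at 6 h, and the 6 h value lay on the other side of 1 with 3 of 4 other scalings. Within each library, which needs no scaling, exonic reads per intronic read were 0.249, 0.317 and 0.201, and the 6 h value was 0.808 times that at 0 h (0.716 to 0.913), beside 1.15 over all genes.

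The intronic reads of Sox6 were not spread alike along the gene. The 4 introns whose midpoints lie nearer the start of the gene held 1568, 875 and 1530 reads, and the 13 toward its end 1493, 1244 and 1314. The share near the start was 51.2% at 0 h, 41.3% at 1 h and 53.8% at 6 h. At 1 h the ratio to 0 h was 0.760 (0.698 to 0.826) near the start and 1.13 (1.05 to 1.22) toward the end, a quotient of 0.670 (0.598 to 0.750) that does not depend on scaling. From 1 h to 6 h the quotient was 1.66 (1.48 to 1.86). Introns 1, 2 and 3 each showed the low value at 1 h, with 401, 192 and 376 reads, 353, 202 and 353 reads, and 732, 435 and 750 reads. Toward the end the introns differed: intron 14 had 155, 192 and 179 reads, highest at 1 h, while intron 11 had 134, 67 and 91, with a ratio of 0.681 (0.4998 to 0.919) at 1 h as low as those near the start. This division of the gene was made after its values were seen. Among 1239 genes with at least 100 kb of introns and 50 reads in each portion, the quotient at 1 h had a median of 0.908 and quartiles of 0.715 and 1.15, and 19.5% of them lay below Sox6. From 1 h to 6 h the median over 1200 such genes was 1.07 and 89.3% lay below Sox6. The medians of these long genes lay on the same side of 1 as Sox6, which stood beyond their quartiles.

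**Figure D3:**
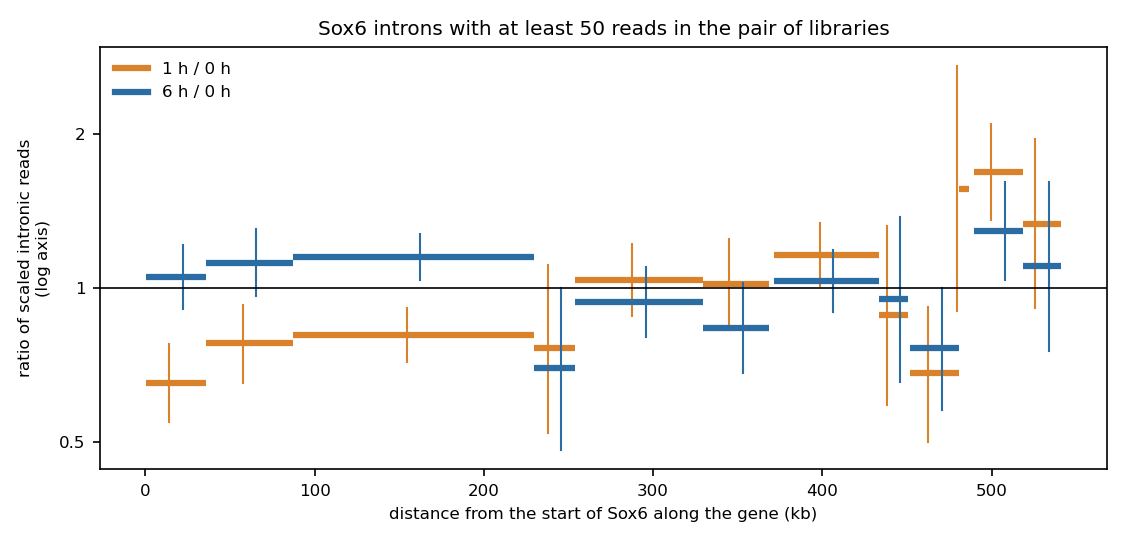
Ratio of scaled intronic reads at 1 h and at 6 h to 0 h (vertical log axis) for each Sox6 intron with at least 50 reads in the pair of libraries, drawn as a bar over its place in the gene by distance from the start in kb, with 95% counting intervals (1 library per time). The first 3 introns lie below 1 at 1 h, with ratios of 0.652, 0.779 and 0.809. At 6 h their ratios are 1.05, 1.12 and 1.15 with these factors, and the intervals of the first 2 span 1.

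Satb1 (gene ID 20230; chromosome 17, 51878794 to 51971958, minus strand, mm9) had 141, 115 and 107 exonic reads, highest at 0 h. The ratio to 0 h was 0.727 (0.564 to 0.937) at 1 h and 0.718 (0.553 to 0.929) at 6 h, not called, and with scaling by mapped reads both intervals spanned 1. Its intronic reads were lower by more: 256 at 0 h, then 93 and 95. In intronic reads 4 of the 8 factors had the 20 reads to be compared with 0 h, namely Lhx6, Sox6, Satb1 and Dlx5. Of these, Satb1 was called lower at 1 h, where 6.19% of 8143 genes were, and Dlx5 higher, where 7.48% were, with 13.7% of genes called in either direction. Satb1 intronic reads fell to 0.494 of the 0 h value at 1 h (0.386 to 0.629) and to 0.416 at 6 h (0.325 to 0.529). At 6 h it was the 1 factor called of the 4, where 5.59% of 8236 genes were called lower and 5.27% higher, or 10.9% in all. With DESeq2 size factors the 1 h ratio was 0.504, just past the line, and the call was not made. No factor was called between 6 h and 1 h in intronic reads, where 7.07% of 7734 genes were called higher and 5.79% lower, or 12.9% in all.

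The low intronic reads of Satb1 were found along the gene. The 5 introns nearer its start had 129, 56 and 57 reads and the 5 toward its end 127, 37 and 38. Intron 9, the longest, had 61, 18 and 22 reads, intron 5 had 53, 20 and 13, and intron 8 had 23, 4 and 0. Exonic reads per intronic read were 0.551 at 0 h, 1.24 at 1 h and 1.13 at 6 h. The change was 2.25-fold at 1 h (1.57 to 3.21) and 2.04-fold at 6 h (1.43 to 2.93), beside 1.33 and 1.15 over all genes, and it needs no scaling between libraries. Within the exons, the last of 11 held 29, 30 and 42 reads, while exon 7 held 46, 33 and 23. Satb1 reads inside exons thus lay in the last exon for 21.6%, 27.3% and 40.0% at 0, 1 and 6 h. This pair of exons was picked after its values were seen.

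**Figure D4:**
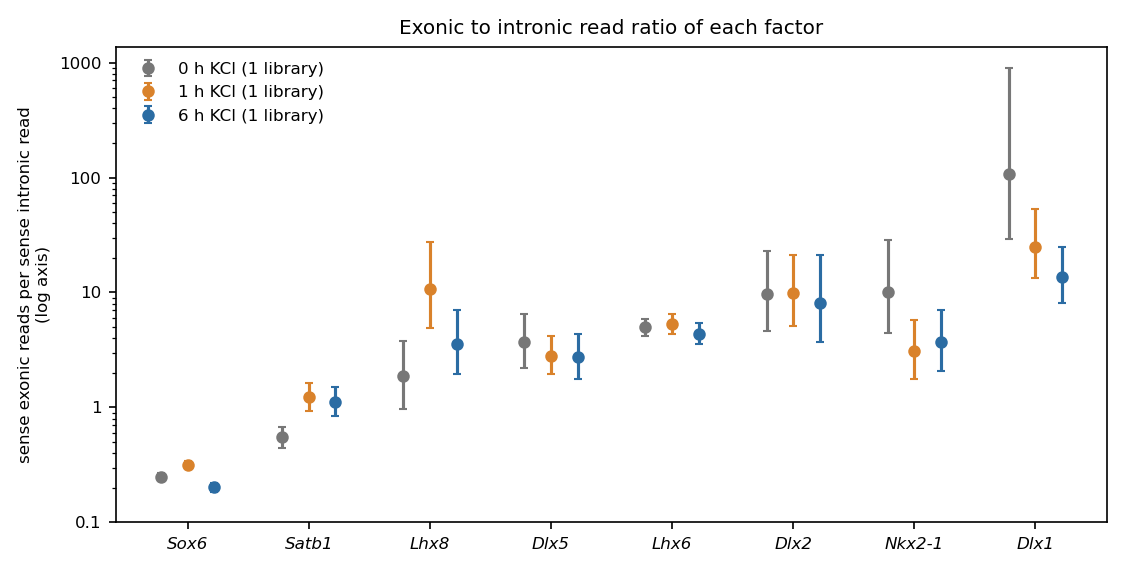
Sense exonic reads per sense intronic read (vertical log axis) for each factor at 0, 1 and 6 h in KCl, 1 library per time, with exact 95% counting intervals. Satb1 stands at 0.551 at 0 h and above 1 at both later times, and Sox6 is the 1 factor with more intronic than exonic reads in each library.

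Dlx5 (gene ID 13395; chromosome 6, 6827805 to 6832068, minus strand, mm9) had 70, 116 and 79 exonic reads, highest at 1 h. The ratio to 0 h was 1.48 (1.09 to 2.02) at 1 h and 1.07 (0.764 to 1.49) at 6 h, and the ratio of 6 h to 1 h was 0.722 (0.536 to 0.969), none of them called. Intronic reads of Dlx5 were 19, 41 and 29, and they rose 2.94-fold at 1 h (1.67 to 5.36), with 1.71 (0.928 to 3.23) at 6 h. Both introns took part, with 10 and 22 reads in the first and 9 and 19 in the second at 0 and 1 h. With the TMM factors of exonic counts the 1 h ratio of intronic reads was 1.92 and not called. The introns of Dlx5 met the read minimum for that pair only through the 1 h library, where they were high. At a minimum of 50 they were not compared. Dlx5 antisense reads numbered at most 2 in a library. The third exon, the last, held 38, 65 and 27 reads.

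Dlx2 (gene ID 13392; chromosome 2, 71381466 to 71384798, minus strand, mm9) had 77, 98 and 57 exonic reads, also highest at 1 h, and lowest at 6 h. The ratio to 0 h was 1.14 (0.834 to 1.55) at 1 h and 0.700 (0.488 to 0.999) at 6 h, not called, and the 6 h interval spanned 1 with DESeq2 size factors and with scaling by mapped reads. From 1 h to 6 h it was 0.617 (0.437 to 0.863). Most of the difference between 1 h and 6 h lay in the third and last exon, with 35, 55 and 19 reads, while the first exon had 37, 26 and 25. Intronic reads of Dlx2, at 8, 10 and 7, were too few to compare.

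Dlx1 (gene ID 13390; chromosome 2, 71367502 to 71372037, plus strand, mm9) had 215, 251 and 205 exonic reads, close in the 3 libraries. The ratio to 0 h was 1.04 (0.864 to 1.26) at 1 h and 0.902 (0.741 to 1.10) at 6 h. Part of its first exon, 623 bases, is shared on the same strand with LOC100040207, so reads there cannot be assigned to 1 gene. In exons 2 and 3 alone the reads were 156, 163 and 137, with ratios of 0.932 (0.744 to 1.17) and 0.830 (0.655 to 1.05). Sense intronic reads of Dlx1 were 2, 10 and 15, under the minimum of 20. At a minimum of 10 both ratios to 0 h would be called higher, 6.81 (1.45 to 63.9) at 1 h and 8.41 (1.96 to 75.8) at 6 h. The introns pass that minimum only through the later libraries, where they are high, and the share of all genes called at it is not given. With the TMM factors of exonic counts the 1 h interval spanned 1.

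The antisense strand of Dlx1 carried more reads than its sense strand in each library. Antisense reads over exons and introns numbered 432, 665 and 870, lowest at 0 h and highest at 6 h. They made up 66.6% (62.8% to 70.2%), 71.8% (68.8% to 74.7%) and 79.8% (77.3% to 82.2%) of all reads of the gene. For the other 7 factors the antisense share was at most 2.90% in any library, and over 9929 genes with at least 100 sense reads its median was 0.798%. Of those genes, 64, or 0.645%, had at least as many antisense as sense reads. Scaled with the TMM factors of exonic counts, Dlx1 antisense reads stood at 1.37 times the 0 h value at 1 h (1.21 to 1.55) and 1.90 times at 6 h (1.70 to 2.14). With scaling by mapped reads the 6 h value was 2.11, past the 2-fold line. With that scaling the sense exonic ratio of Dlx1 was 1.23 (1.02 to 1.48) at 1 h and 0.9999 at 6 h.

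The antisense reads spanned the gene apart from its first exon. Exon 1 had 5, 3 and 8 of them, intron 1 had 83, 97 and 128, exon 2 had 32, 57 and 58, intron 2 had 167, 271 and 398, and exon 3 had 145, 237 and 278. The deposited tables hold an annotated antisense gene there, Dlx1as (gene ID 111970; chromosome 2, 71370852 to 71375945, minus strand), which starts beyond the end of Dlx1 and runs back into its last exon. Dlx1as had 104, 156 and 205 exonic reads, with ratios of 1.34 (1.04 to 1.73) at 1 h and 1.86 (1.47 to 2.38) at 6 h, not called. Its intronic reads, 117, 252 and 157, were called higher at 1 h, at 2.93 times the 0 h value (2.35 to 3.68), with the intronic factors. With the exonic factors used for the Dlx1 antisense reads the ratio was 1.92 (1.54 to 2.41) and not called. Antisense reads in exons 1 and 2 and introns 1 and 2 of Dlx1, which lie outside the Dlx1as model, numbered 287, 428 and 592, and stood at 1.95 times the 0 h value at 6 h (1.69 to 2.25). The sense intronic reads of Dlx1 given above were a small number beside the 250, 368 and 526 antisense reads of the same introns.

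**Figure D5:**
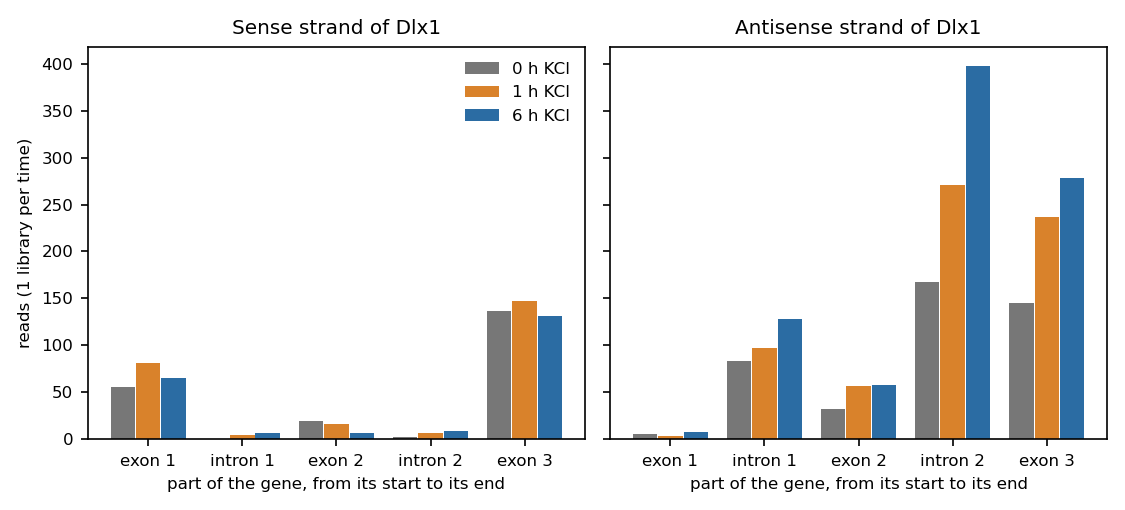
Reads of each library (vertical axis, counts from 0) in the 3 exons and 2 introns of Dlx1, on its sense strand (left) and its antisense strand (right), at 0, 1 and 6 h in KCl. Sense reads lie mostly in exons 1 and 3, and antisense reads lie from intron 1 to exon 3, with 398 in intron 2 at 6 h.

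Genes that work with these factors were taken from 5 lists. Most of those compared were not called, which was also so over all genes. Against 0 h, 1.58% of all genes compared were called higher and 1.43% lower at 1 h. At 6 h 10.3% were called in either direction. Among LIM-domain cofactors and other LIM-homeodomain factors, which bind Lhx6 and Lhx8 or compete for their partners, 10 of 18 had the reads to be compared. None was called at 1 h, and at 6 h 1 was called higher, Lmo2, a LIM-only protein, with 9, 7 and 43 reads and a ratio of 4.52 (2.17 to 10.5). Lmo2 met the read minimum only through the 6 h library, where it was high. At a minimum of 50 no gene of this list was called at 6 h against 0 h. The 3 with most reads were Rlim (Rnf12 in the tables), a ubiquitin ligase that acts on LIM cofactors, at 1.33 and 1.20 times the 0 h value at 1 h and 6 h, Ssbp2 at 1.14 and 0.903, and Lmo3 at 0.997 and 1.17. The list's median log2 ratio was 0.09 at 1 h and 0.20 at 6 h.

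Of the other Dlx, Sox and Satb genes, 5 of 10 could be compared, and Dlx6 was not matched. Dlx6as, the noncoding RNA of the Dlx5 and Dlx6 locus (gene ID 13397; chromosome 6, 6813797 to 6815150, minus strand, mm9), was the 1 called. It had 25, 8 and 12 reads, and fell to 0.285 of the 0 h value at 1 h (0.111 to 0.653) and to 0.454 at 6 h (0.208 to 0.938), while exonic reads of its neighbour Dlx5 were highest at 1 h. With scaling by mapped reads the 6 h ratio of Dlx6as was 0.503 (0.230 to 1.04) and not called. Dlx6as met the read minimum only through the 0 h library, where it was high. At a minimum of 50 no gene of this list was called against 0 h at either time. The 3 with most reads, Sox11, Sox4 and Sox2, which are known from progenitors and young neurons, stood between 0.894 and 1.17 at both times. The list's median log2 ratio was 0.06 at 1 h and -0.14 at 6 h.

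Of 45 other forebrain and interneuron transcription factors, 32 could be compared and none was called at 1 h. At 6 h 2 were called higher, the ETS factor Etv5 (26, 44 and 59 reads, 2.15 times) and the zinc-finger factor St18 (7, 2 and 32 reads, 4.32 times). St18 met the read minimum only through the 6 h library, where it was high. The neuronal zinc-finger factor Myt1l, with 374, 214 and 167 reads, was called lower at 6 h, at 0.422 (0.350 to 0.508). At a minimum of 50, 1 gene of this list was called higher and 1 lower at 6 h against 0 h. Among those with most reads, Zeb2, which is needed for MGE cells to become cortical interneurons, had 887, 673 and 511 reads. Its ratios of 0.677 (0.611 to 0.749) and 0.545 (0.488 to 0.608) lay beside the 0.686 and 0.560 of Lhx6, and like those were not called. Bcl11b, a zinc-finger factor, stood at 0.905 at 1 h and 1.07 at 6 h. The list's median log2 ratio was -0.21 at 1 h and -0.14 at 6 h.

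In Sonic hedgehog signalling, the pathway that maintains Nkx2-1 in MGE progenitors, 7 of 13 genes could be compared at 1 h and none was called. Of 8 at 6 h 1 was called higher, Hhip, which binds and restrains the ligand, with 5, 11 and 20 reads and a ratio of 3.78 (1.38 to 12.9). Hhip met the minimum of 20 reads only through the 6 h library where it was high. At a minimum of 50 no gene of this list was called at 6 h against 0 h. The receptor Ptch1, with most reads, stood at 0.742 (0.577 to 0.953) and 0.913 (0.717 to 1.16). Gli3 stood at 0.820 and 1.64, and Smo at 0.713 and 0.946. The list's median log2 ratio was -0.35 at 1 h and -0.11 at 6 h.

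Among 20 migration receptors and identity genes of interneurons, 16 could be compared at 1 h with none called, and 17 at 6 h. At 6 h the guidance receptor Nrp1 rose, with 98, 98 and 338 reads, at 3.26 times the 0 h value (2.60 to 4.13). The receptors of the chemokine Cxcl12 fell: Cxcr4, with 122, 121 and 51 reads, to 0.395 (0.279 to 0.552), and Ackr3 (Cxcr7 in the tables), with 232, 269 and 77 reads, to 0.314 (0.239 to 0.408). The GABA-synthesizing enzyme gene Gad1 had 2787, 3457 and 5361 reads, a ratio of 1.82 (1.74 to 1.90) at 6 h that was not called. Gad2 stood at 1.40 and Erbb4, a neuregulin receptor of interneurons, at 0.970 at 6 h. The list's median log2 ratio was -0.01 at 1 h and 0.28 at 6 h. It was -0.15 and -0.34 for the 8 factors, and 0.01 and 0.00 over all genes compared.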

How the data were processed

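RNA was measured in 3 libraries, 1 for each time in KCl. The deposited tables give raw read counts for each gene, strand and feature. Per the file headers, reads of 35 bp were kept that mapped uniquely with at most 3 mismatches to mm9 or to a RefSeq splice library, so near-identical genes are undercounted, while duplicate reads stayed in. The aligner, not given in the sources used here, is left unnamed. Per the file headers, the deposited coverage signal was scaled to 10000000 mapped reads, and it served as an alternative only.

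Sense exonic and sense intronic counts were each scaled with TMM factors of edgeR 4.0.16 (R 4.3.3) computed over all genes. Ratios, exact Clopper-Pearson 95% intervals and calls were computed in Python 3.11.15 with pandas 2.3.3, numpy 2.4.6 and scipy 1.17.1, and figures with matplotlib 3.10.9. Log2 ratios used a pseudocount of 0.5 reads. Alternatives were scaling by total reads, by mapped reads or by DESeq2 1.42.0 size factors, read minimums of 0, 10 and 50, and a pseudocount of 5. Of 176 list entries, 164 matched by symbol and 11 by gene ID. Named genes were the 8 factors, the 3 genes of each list with most reads, each list gene called against 0 h, and the 3 genes nearest to a called factor. The values of 1 gene so named are not reported here. Members and lists were chosen with earlier results of these data known.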

Additional observations from a re-analysis of the deposited data

How the results depend on the processing

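No paired analysis was possible because each time has 1 library, and no replicate could be left out. The 8 factors kept their exonic calls under each scaling tried, and 1 of 96 alternative exonic ratios, that of Dlx5 at 6 h with scaling by total exonic reads (0.996), lay on the other side of 1. Of 120 alternative intronic ratios, 12 did, and 2 calls were lost, those of Satb1 and Dlx5 at 1 h given above. Scaling by mapped reads moved the median log2 ratio of all genes by 0.24 at 1 h and 0.15 at 6 h in exonic reads, and by -0.37 at 1 h in intronic reads, so each ratio moves by that much with it. The exonic calls over all genes at 1 h against 0 h numbered 303, and 474 with no read minimum or 133 at a minimum of 50. At the minimum of 50, exonic calls were 587 in place of 1044 at 6 h against 0 h and 523 in place of 892 at 6 h against 1 h. Intronic calls at that minimum were 586 in place of 1113 at 1 h against 0 h, 438 in place of 894 at 6 h against 0 h, and 552 in place of 995 at 6 h against 1 h. Scaling intronic reads with the exonic TMM factors, an alternative chosen after seeing the data, gave 2425 intronic calls at 1 h against 0 h. The share of exonic calls that were higher was 52.5% at 1 h and 85.1% with scaling by mapped reads, and at 6 h against 0 h 47.6%, 64.5% with mapped reads and 35.6% with total exonic reads. The same share at 6 h against 1 h was 47.4%, 36.0% and 35.4%. For intronic calls it was 54.7% at 1 h against 0 h, 19.0% with mapped reads, 33.5% with total intronic reads and 8.70% with exonic factors, and 48.5%, 37.5%, 32.6% and 22.8% at 6 h against 0 h. At 6 h against 1 h the intronic share was 55.0%, 80.2% with mapped reads and 85.4% with exonic factors. Where a setting changed a count or a call, the cause was not tested beyond the fewer genes a higher minimum admits. Lhx8, Nkx2-1 and Dlx2, with under 100 exonic reads in each library, could hide differences within their wide intervals.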
